A study of Drosophila melanogaster with 16 samples.

Results

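The respiratory chain of Drosophila was described here gene by gene in RNA-seq of whole larvae, and its genes encoded in the mitochondrial genome were compared with those encoded in the nucleus. Members were taken by symbol: every gene of the table whose symbol begins with mt:, and the nuclear genes named for NADH dehydrogenase (ND-), ubiquinol-cytochrome c reductase (UQCR), cytochrome c (Cyt-c), cytochrome c oxidase (COX) and ATP synthase (ATPsyn), with RFeSP, cype, levy, blw and sun. The rule found 78 genes of 9982, of which 12 were mitochondrial and 66 nuclear, and all 78 passed the filter on low values. Complex II was outside the rule and is given with related genes. There were 4 groups of 4 libraries, each library from 20 larvae: larvae labelled grn RNAi on a high sugar diet (HSD, 10% yeast and 15% sugar), control larvae on HSD, larvae labelled grn RNAi on a low sugar diet (LSD, 10% yeast) and control larvae on LSD. By the methods of the study, all larvae were first kept on LSD and then moved to plates of LSD or HSD for 8 h. HSD was thus a switch of diet, and LSD was not. All larvae carried the ubiquitous Tub-GAL4 driver. The controls expressed double-stranded RNA against luciferase from another insertion line than the RNAi against grn, so that line and RNAi cannot be told apart. The genotype field of the GEO labels names wild type or an erk7 mutant, against the titles, so groups were taken from the sample titles. By the study's methods the larvae were at early second instar when moved, whereas the GEO label names a later stage. For the pupariation assay the methods of the study take the mothers, and with them the mitochondrial genome, from the driver line, and for the sequenced larvae the direction of the cross is not given in the sources used here.

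The chain passes electrons from NADH through complex I, or from succinate through complex II, to ubiquinone, and from there through complex III, cytochrome c and complex IV to oxygen. Protons pumped on the way drive ATP synthase, complex V. Most subunits are encoded in the nucleus and imported, while a small set of core subunits of complexes I, III, IV and V and the rRNAs of the mitochondrial ribosome come from the mitochondrial genome, which is copied and transcribed inside the organelle. Larval muscle and midgut are rich in mitochondria. The study asked how Grain (grn), a GATA transcription factor, acts on metabolic gene expression on low and high sugar.

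The values are normalized CPM, read counts scaled to library size, as deposited, and positions are those of release 6 of the fly genome. Over the 9982 genes given, the 16 libraries held 24038848 to 32644817 reads. Shares of reads and CPM of all reads below refer to these reads. The grn gene itself had 207 to 231 normalized CPM in libraries labelled grn RNAi on HSD, against 17.1 to 23.4 in control libraries on HSD, and 227 to 259 in libraries labelled grn RNAi on LSD, against 14.6 to 20.8 in control libraries on LSD. Reads of grn were thus higher and not lower in the libraries that carry the RNAi label, and directions below refer to the libraries as labelled. The study reports that its RNAi lines lowered grn expression. Where the reads counted here as grn came from was not tested. Normalized values summed to between 929735 and 963521 in libraries labelled grn RNAi and to between 1025511 and 1131938 in control libraries, and the 2 highest sums belonged to control LSD replicates 1 and 2. The authors' scaling therefore differs from a scaling to all reads, and sums, medians and counts of called members that turn on this are given under each. Values of single genes, counts of separated groups, gene lists and tissue markers are under the authors' scaling unless another is named.

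Mitochondrial RNA took 8.65% to 12.96% of the reads of a library, of which mt:lrRNA, the large rRNA, alone took 5.03% to 7.79% and was the most abundant gene in all 16 libraries. The 66 nuclear members took 2.59% to 2.91%. Per kilobase of exon and averaged over all libraries, the 5 mitochondrial genes for complexes III, IV and V lay between 6030 normalized CPM (mt:CoII) and 12800 (mt:CoIII). The 5 mitochondrial complex I genes had a median of 1230 per kilobase and reached 1440 in mt:ND4. Levels thus differed widely between genes of the same small genome. Nuclear subunits lay lower: the per kilobase medians were 166 for the 7 core subunits of complex I, 144 for its 25 accessory subunits, 307 for the 8 genes of complex III, 434 for the 9 of complex IV and 552 for the 13 of complex V. The highest nuclear level per kilobase was that of ATPsynbeta, the catalytic beta subunit of ATP synthase, at 1900, followed by ATPsynC, the membrane ring subunit c, at 1788 and Cyt-c-p, the somatic cytochrome c, at 1347. At the low end stood 3 paralogs whose symbols end in L, from 0.33 (ATPsynbetaL) to 4.59 (ATPsynepsilonL) per kilobase.

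**Figure D1:**
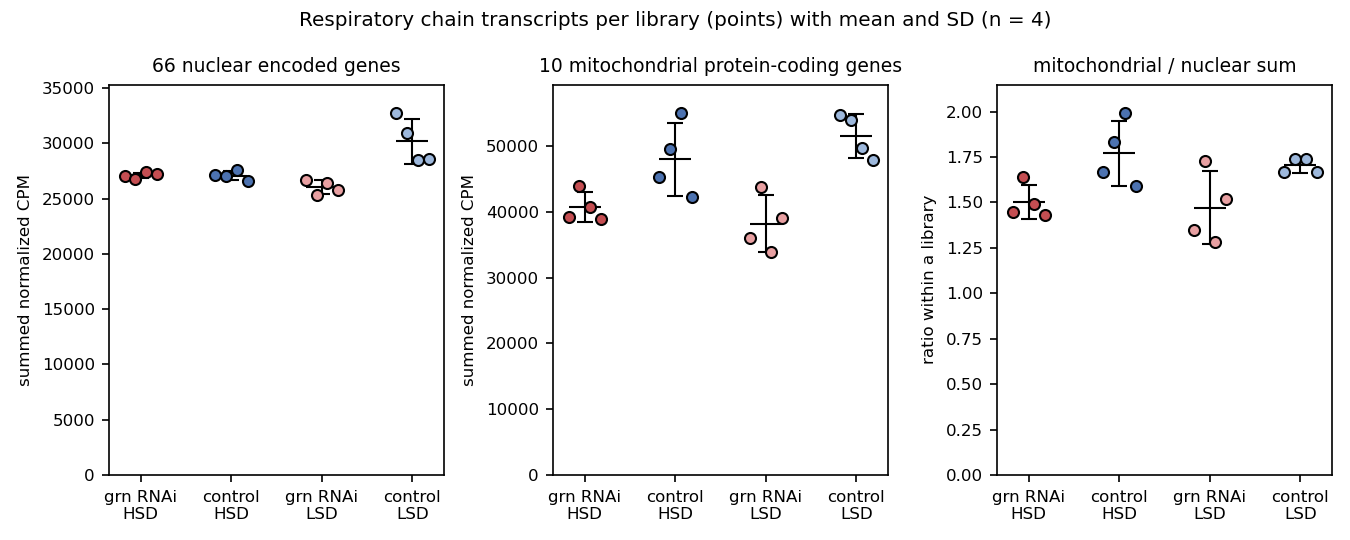
Summed normalized CPM of the 66 nuclear members (left) and the 10 mitochondrial protein-coding members (middle), and the ratio of the mitochondrial to the nuclear sum within each library (right); points are libraries, bars the mean and SD of 4. Under the authors' scaling, nuclear sums are highest in control libraries on LSD (28528 to 32715) and lie between 25330 and 27609 in the other groups, which is not so with CPM of all reads, while mean mitochondrial sums are lower on each diet under the grn RNAi label, with overlapping libraries on HSD.

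The mean of mitochondrial protein-coding RNA was lower on both diets where the grn RNAi label stood, with libraries apart on LSD and overlapping on HSD under the authors' scaling. Its sum over 10 genes was 40653 ± 2269 normalized CPM in libraries labelled grn RNAi on HSD, against 47967 ± 5526 in control libraries on HSD (SD, n = 4). The HSD libraries ran from 38928 to 43832 in those labelled grn RNAi and from 42195 to 54924 in controls. On LSD the sums were 38175 ± 4299 in libraries labelled grn RNAi and 51550 ± 3331 in control libraries (SD, n = 4). Scaled to CPM of all reads they were 42998 ± 2239 in libraries labelled grn RNAi on HSD and 45916 ± 4659 in control libraries on HSD, and 40688 ± 4468 in libraries labelled grn RNAi on LSD against 47654 ± 1867 in control libraries on LSD (SD, n = 4), with overlapping libraries on both diets. On LSD, 11 of the 12 mitochondrial genes passed the test as lower (limma, adjusted p under 0.05) and 0 as higher, with a median log2 fold change of -0.46 against 0.03 for all genes. Of all 9950 genes tested, 27.1% were called lower and 27.1% higher in that comparison. The exception was mt:srRNA. In 10 of the 12, every library labelled grn RNAi lay below every control library, which held for 24.4% of all genes, and 23.1% lay wholly above. For a single gene such a separation gives p = 0.029 in the exact permutation test, the smallest that 4 against 4 libraries allow. With CPM of all reads or quantile normalization, 8 passed on LSD. On HSD 5 of the 12 passed as lower and 0 as higher (median -0.29 against 0.01 for all genes), where 21.2% of all genes were called lower and 17.9% higher. The HSD count was 3, with a median of -0.15, under CPM of all reads. In 6 of the 12, every library labelled grn RNAi on HSD lay below every control library, against 19.9% of all genes, and 18.7% of all genes lay wholly above. The count on HSD was 3 without grn HSD replicate 1, grn HSD replicate 4, control HSD replicate 2 or control HSD replicate 3, and 8 without control HSD replicate 4, in each case as lower.

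The genes for complex I subunits in the mitochondrial genome, mt:ND1 to mt:ND5, had the larger differences. On LSD their log2 fold changes ran from -1.18 to -0.61, and those of mt:Cyt-b, mt:CoI, mt:CoII, mt:CoIII and mt:ATPase6 from -0.48 to -0.35, with no overlap between these sets. On HSD the ND genes ran from -1.47 to -0.31 and the other 5 from -0.27 to -0.17. The difference between the sets was not tested.

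mt:ND5, a membrane subunit of complex I (MT:6409-8125, minus strand), had 1515, 1954, 1682 and 1612 normalized CPM in libraries labelled grn RNAi on HSD, against 2089, 2439, 2926 and 2087 in control libraries on HSD. On LSD it had 1556, 2034, 1365 and 1671 in libraries labelled grn RNAi, against 2825, 2941, 2634 and 2333 in control libraries. The groups did not overlap on either diet, and both differences passed (log2 fold change -0.49, SE 0.13, adjusted p = 0.0082 on HSD and log2 fold change -0.71, SE 0.13, adjusted p = 0.00041 on LSD). mt:ND4 (MT:8207-9545, minus strand) had 1559, 1736, 1649 and 1533 on HSD in libraries labelled grn RNAi, against 1843, 2029, 2505 and 1749 in control libraries. The LSD values were 1438, 1926, 1390.5 and 1646 in libraries labelled grn RNAi and 2720.3, 2663, 2347 and 2212 in control libraries. It too was lower on both diets without overlap (log2 fold change -0.31, SE 0.12, adjusted p = 0.045 on HSD and log2 fold change -0.64, SE 0.12, adjusted p = 0.00037 on LSD). For mt:ND1 (MT:11721-12659, minus strand) the values were 974, 1172, 1046 and 971 in libraries labelled grn RNAi on HSD, against 1179, 1292, 1818 and 1199 in control libraries on HSD. Those on LSD were 942, 1319, 796 and 979 in libraries labelled grn RNAi, against 1896, 1784, 1524 and 1419 in control libraries. mt:ND1 fell on LSD (log2 fold change -0.73, SE 0.16, adjusted p = 0.0014), and on HSD the groups did not overlap but the test was not passed (log2 fold change -0.38, SE 0.16, adjusted p = 0.069).

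mt:ND3, the shortest protein-coding gene measured here on the mitochondrial genome (MT:5608-5961, plus strand), was at 182, 217, 189 and 182 in libraries labelled grn RNAi on HSD, against 265, 343, 425 and 269.7 in control libraries on HSD. On LSD it had 163, 209.8, 158 and 183 in libraries labelled grn RNAi, against 333, 273, 262 and 225 in control libraries. All libraries labelled grn RNAi lay below the control libraries of the same diet (log2 fold change -0.73, SE 0.15, adjusted p = 0.0013 on HSD and log2 fold change -0.61, SE 0.15, adjusted p = 0.0033 on LSD). mt:ND2 (MT:240-1263, plus strand) was far below its neighbours, with 4.65, 6.46, 5.98 and 5.28 in libraries labelled grn RNAi on HSD, against 10.0, 18.4, 29.1 and 13.04 in control libraries on HSD. The LSD values were 5.26, 9.17, 4.09 and 4.86 in libraries labelled grn RNAi and 16.6, 14.6, 12.9 and 9.86 in control libraries, and all rest on 123 to 695 reads a library. It had the largest log2 fold change of the mitochondrial genes on each diet (log2 fold change -1.47, SE 0.28, adjusted p = 0.00091 on HSD and log2 fold change -1.18, SE 0.28, adjusted p = 0.0031 on LSD).

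**Figure D2:**
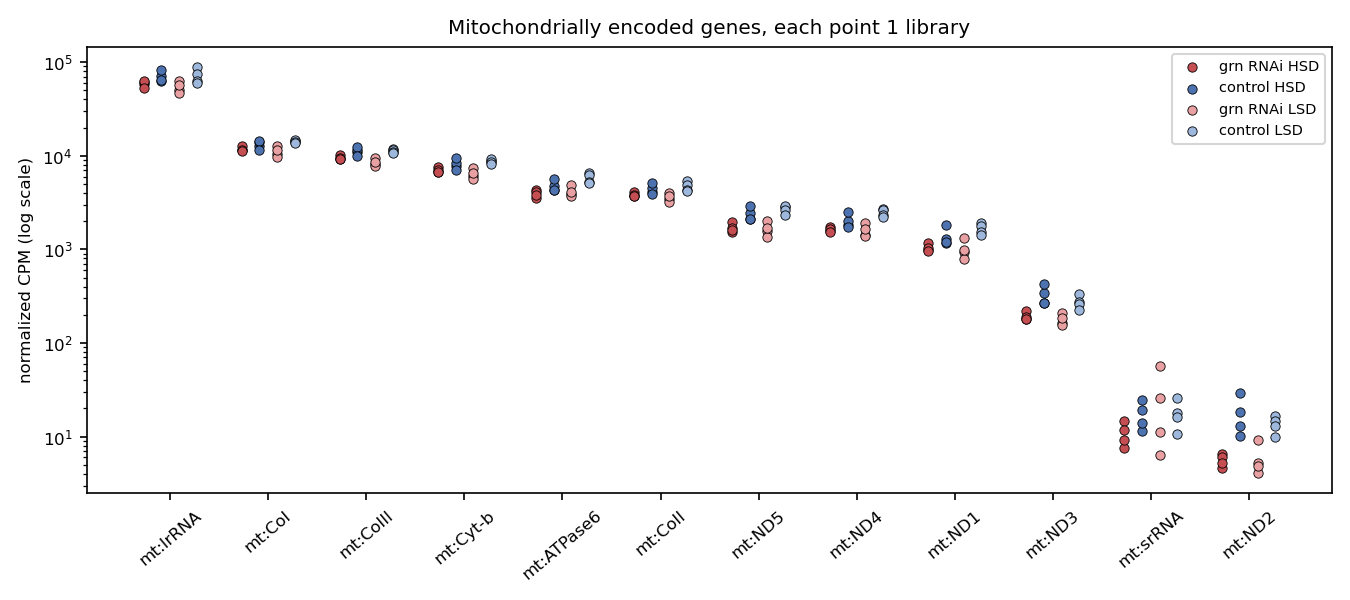
Normalized CPM (log axis) of the 12 mitochondrial genes in each library, in order of mean level, with the groups from left to right as in the legend. Libraries labelled grn RNAi lie at or below the control libraries of the same diet in most genes, the range runs from 88128 for mt:lrRNA to 4.09 for mt:ND2, and mt:srRNA scatters widely on LSD.

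mt:CoI, the catalytic subunit of complex IV (MT:1474-3009, plus strand), had 11516, 12674, 11652 and 11122 normalized CPM in libraries labelled grn RNAi on HSD, against 12806, 14164, 14472 and 11614 in control libraries on HSD. Those on LSD were 10499, 12581, 9807 and 11617 in libraries labelled grn RNAi, against 14452, 14609, 14038 and 13529 in control libraries. The groups overlapped on HSD and were apart on LSD (log2 fold change -0.17, SE 0.08, adjusted p = 0.1 on HSD and log2 fold change -0.35, SE 0.08, adjusted p = 0.0019 on LSD). mt:CoIII, another core subunit of complex IV (MT:4736-5524, plus strand), had 9294, 10085, 9529.5 and 9339 in libraries labelled grn RNAi on HSD, against 10864, 11559, 12544 and 9875 in control libraries on HSD. On LSD it had 8088, 9419, 7687 and 8644 in libraries labelled grn RNAi, against 11842, 11398, 10848 and 10624 in control libraries. It was the only one of these 5 genes to pass on both diets (log2 fold change -0.22, SE 0.07, adjusted p = 0.024 on HSD and log2 fold change -0.40, SE 0.07, adjusted p = 0.00034 on LSD), although control HSD replicate 4 lay within the range of the libraries labelled grn RNAi. mt:Cyt-b of complex III, mt:CoII of complex IV and mt:ATPase6 of ATP synthase fell on LSD by 0.43, 0.39 and 0.48 on the log2 scale (limma adjusted p = 0.00098, 0.0028 and 0.0018), and on HSD their log2 fold changes of -0.21, -0.19 and -0.27 did not pass (adjusted p = 0.072, 0.11 and 0.058). mt:ATPase6 shares 7 bases with mt:ATPase8 and 1 with mt:CoIII, and mt:ND4 shares 1 with mt:ND4L, so that reads at those ends are uncertain. The genes mt:ATPase8, mt:ND4L and mt:ND6 were not analysed here.

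The rRNA genes differed in level and in spread between libraries, and their fold changes were not tested against each other. mt:lrRNA (MT:12735-14058, minus strand) had 59083, 61843, 62232 and 53114 normalized CPM in libraries labelled grn RNAi on HSD, against 62169, 70509, 82739 and 64275 in control libraries on HSD. The LSD values were 51008, 62702, 46939.6 and 57099 in libraries labelled grn RNAi and 88128, 75555, 63096 and 59362 in control libraries. It was called lower on LSD although grn LSD replicate 2 lay above control LSD replicate 4 (log2 fold change -0.39, SE 0.13, adjusted p = 0.019), and did not pass on HSD (log2 fold change -0.24, SE 0.13, adjusted p = 0.15). mt:srRNA, the small rRNA (MT:14131-14916, minus strand), had 7.55, 14.8, 11.8 and 9.19 in libraries labelled grn RNAi on HSD, against 11.4, 19.4, 24.7 and 13.9 in control libraries on HSD. Those on LSD were 11.2, 56.2, 25.6 and 6.35 in libraries labelled grn RNAi, against 25.8, 17.7, 16.3 and 10.6 in control libraries. Its libraries overlapped on both diets (log2 fold change -0.64, SE 0.51, adjusted p = 0.34 on HSD and log2 fold change 0.10, SE 0.51, adjusted p = 0.88 on LSD). The libraries were poly(A) selected, and the part of that selection in the levels of the rRNAs was not tested.

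Ratios within a library do not change when a library is scaled by a single factor. The summed mt:ND1, mt:ND4 and mt:ND5, all on the minus strand, stood to the summed mt:CoI, mt:CoII and mt:CoIII, all on the plus strand, as 0.173 ± 0.0068 in libraries labelled grn RNAi on HSD, against 0.200 ± 0.018 in control libraries on HSD (SD, n = 4). On LSD the ratio was 0.183 ± 0.014 in libraries labelled grn RNAi and 0.227 ± 0.013 in control libraries (SD, n = 4), and its range of 0.172 to 0.203 in libraries labelled grn RNAi did not overlap that of 0.210 to 0.239 in control libraries. On HSD the ranges were 0.165 to 0.181 in libraries labelled grn RNAi and 0.184 to 0.226 in control libraries. The ratio of mt:lrRNA to the summed mitochondrial protein-coding genes was 1.45 ± 0.079 in libraries labelled grn RNAi on HSD and 1.46 ± 0.070 in control libraries on HSD, and 1.42 ± 0.031 in libraries labelled grn RNAi on LSD against 1.38 ± 0.17 in control libraries on LSD (SD, n = 4), with overlapping ranges. These ratios were chosen after the gene values were seen and are given without a test.

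The 66 nuclear members had a different pattern over the groups. Their sum was 27105 ± 246 normalized CPM in libraries labelled grn RNAi on HSD and 27096 ± 410 in control libraries on HSD, and 26063 ± 621 in libraries labelled grn RNAi on LSD against 30197 ± 2029 in control libraries on LSD (SD, n = 4). Under the authors' scaling the group that stood apart was thus control LSD, at 32715, 30970.0, 28528 and 28576. Leaving out the 3 paralogs ending in L, 62 of 63 nuclear members had their highest group mean in control LSD. The exception was ND-AGGG, an accessory subunit of complex I at 4.53 to 7.77 normalized CPM in every library, with its highest mean in libraries labelled grn RNAi on LSD. With CPM of all reads the nuclear sums were 28674 ± 363 in libraries labelled grn RNAi on HSD and 25963 ± 41 in control libraries on HSD, and 27785 ± 698 in libraries labelled grn RNAi on LSD against 27908 ± 933 in control libraries on LSD (SD, n = 4), so that control HSD stood lowest and control LSD did not stand highest.

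On LSD, 57 of the 66 nuclear members passed as lower in the libraries labelled grn RNAi and 0 as higher under the authors' scaling, but 5 as lower and 2 as higher with CPM of all reads. The median log2 fold change under the authors' scaling was -0.21 (27.1% of all genes lower). They included all 7 core and 21 of 25 accessory subunits of complex I, 5 of 8 genes of complex III, Cyt-c-p, all 9 of complex IV and all 13 of complex V. Fold changes were small and close together: outside the L paralogs, the class medians lay between -0.22 and -0.17. In 36 of the 66, every library labelled grn RNAi lay below every control library (24.4% of all genes). On HSD only 4 of the 66 passed as lower, ATPsynbetaL, UQCR-11L, ATPsynG and ND-MLRQ, and 0 as higher, with a median of 0.00, where 21.2% of all genes were called lower and 17.9% higher. Of these, ATPsynbetaL and UQCR-11L passed the filter on low values only through control libraries, which favoured a lower call. On HSD 8 of the 66 lay wholly below and 3 wholly above the control libraries (19.9% and 18.7% of all genes).

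These nuclear directions depend on the scaling, though not under every alternative. With median of ratios scaling, edgeR and DESeq2 the nuclear median on LSD was -0.21 in each, with all genes at 0.02, 0.03 and 0.02. On HSD the nuclear medians were 0.01, 0.00 and 0.01. When the recovered reads were scaled to CPM of all reads, the median of the nuclear members on LSD was 0.00 with 2 genes called higher and 5 lower, and on HSD it was 0.15 with 47 called higher and 2 lower. With quantile normalization the medians were 0.04 on LSD (16 higher, 2 lower) and 0.22 on HSD (52 higher, 2 lower). The same scalings moved the median of all genes, to 0.22 on LSD and 0.15 on HSD with CPM of all reads and to 0.13 on each diet with quantile normalization. With CPM of all reads, 53.95% of all genes were called higher and 16.06% lower on LSD, and 42.3% and 13.99% on HSD. With quantile normalization the shares were 41.26% and 19.15% on LSD, and 39.5% and 14.49% on HSD. Relative to the median of all genes, the nuclear members stood at -0.24 on LSD under the authors' scaling, -0.23 with CPM of all reads and -0.10 with quantile normalization. On HSD they stood at -0.01, 0.00 and 0.08. The mitochondrial genes stood at -0.49, -0.48 and -0.40 on LSD and at -0.31, -0.30 and -0.36 on HSD, below the median of all genes in each case.

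**Figure D3:**
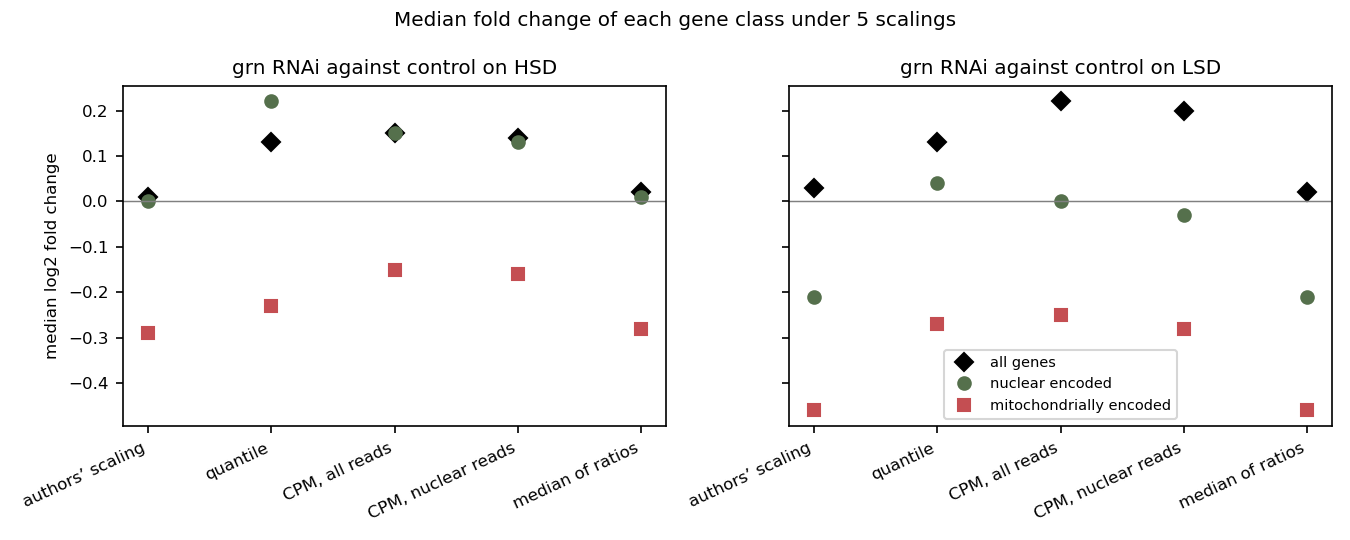
Median log2 fold change, libraries labelled grn RNAi against control libraries, of all genes (diamonds), nuclear members (circles) and mitochondrial members (squares) under 5 scalings, on HSD (left) and LSD (right). The mitochondrial median is below that of all genes under each scaling, and the nuclear median is below it on LSD and within 0.08 of it on HSD.

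The nuclear difference on LSD was also larger through 2 control libraries. Control LSD replicates 1 and 2 had the highest nuclear sums and the highest column sums. Without this pair, an alternative chosen after seeing the data, 28 of the 66 passed as lower on LSD with a median of -0.10, in place of 57 and -0.21. Of the 12 mitochondrial genes, 9 then passed as lower on LSD with a median of -0.36, in place of 11 and -0.46.

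The ratio of the mitochondrial protein-coding sum to the nuclear sum, which a single factor per library leaves as it is, had a lower mean on each diet under the grn RNAi label. It was 1.45, 1.64, 1.49 and 1.43 in libraries labelled grn RNAi on HSD, against 1.67, 1.83, 1.99 and 1.59 in control libraries on HSD, and 1.35, 1.73, 1.28 and 1.52 in libraries labelled grn RNAi on LSD, against 1.67, 1.74, 1.74 and 1.67 in control libraries on LSD. On HSD the mean was 1.50 ± 0.095 in libraries labelled grn RNAi and 1.77 ± 0.18 in control libraries, and on LSD it was 1.47 ± 0.20 in libraries labelled grn RNAi and 1.71 ± 0.040 in control libraries (SD, n = 4). The difference of mean log2 ratios was -0.23 on HSD and -0.23 on LSD, beside a pooled SD within groups of 0.129. With quantile normalization, which is not a single factor, it was -0.271 on HSD and -0.247 on LSD. The ranges overlapped on each diet: grn HSD replicate 2 lay above control HSD replicate 4, and grn LSD replicate 2 lay among the control libraries. Leaving out 1 library at a time gave differences from -0.284 to -0.175 on HSD and from -0.309 to -0.165 on LSD. Between diets the ratio differed little, by 0.04 (HSD minus LSD, log2) in libraries labelled grn RNAi and by 0.05 in control libraries. Abundant genes weigh most in such sums, with mt:CoI highest in the mitochondrial sum and ATPsynbeta in the nuclear sum.

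**Figure D4:**
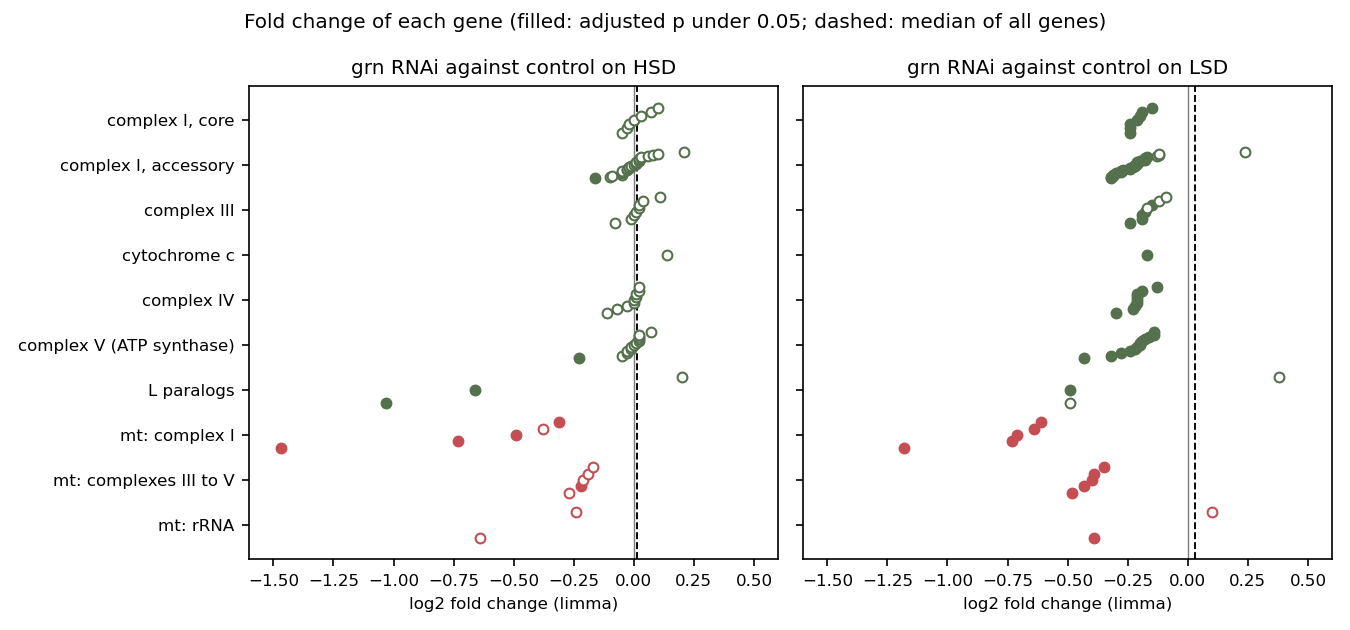
Log2 fold change of each member, libraries labelled grn RNAi against control libraries, on HSD (left) and LSD (right), by complex, with nuclear members in green and mitochondrial members in red; filled points had a limma adjusted p under 0.05 and the dashed line is the median of all genes. Under the authors' scaling drawn here, nuclear subunits crowd around 0.00 on HSD and around -0.21 on LSD. With CPM of all reads their medians are 0.15 and 0.00. The mitochondrial protein-coding genes lie left of most nuclear subunits on both diets, but ATPsynG, ATPsynbetaL and UQCR-11L lie among them.

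Diet alone gave other counts of calls. On HSD against LSD in control libraries, 37 of the 66 nuclear members passed as lower and 0 as higher (median -0.15; 22.3% of all genes lower and 19.3% higher), and 25 lay wholly below (18.1% of all genes, with 13.4% wholly above). Without control LSD replicate 1 the count was 24, and without control LSD replicates 1 and 2 it was 15 with a median of -0.05. None of the 12 mitochondrial genes passed in limma (median -0.09), 2 were lower at an unadjusted p under 0.05, edgeR called 0 and DESeq2 called 2. Of their log2 fold changes, 10 of the 12 were negative. The 2 counts are not at equal precision: mt:ND4 at -0.30 (SE 0.12) did not pass, while blw at -0.17 (SE 0.03) did. In libraries labelled grn RNAi, 3 nuclear members passed as higher on HSD, ATPsynbeta, ND-39 and ND-75, and 0 as lower (median 0.03; 18.3% of all genes higher and 23.3% lower), and 13 lay wholly above and 0 below (21.2% and 25.9% of all genes). There 0 mitochondrial genes passed in limma, 1 was higher at an unadjusted p under 0.05, edgeR called 0 and DESeq2 called 1.

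The test of the difference between the diets in the effect of genotype called 15 nuclear members, all with a more positive fold change on HSD, where 3.72% of all genes were called in that direction and 1.63% in the other. Its median over the nuclear members was 0.20, and 44 of 66 were higher at an unadjusted p under 0.05. For the mitochondrial genes the median was 0.19 and 0 passed (0 also at an unadjusted p under 0.05, 0 in edgeR and 0 in DESeq2), with standard errors of 0.10 to 0.71. The nuclear and mitochondrial medians were not tested against each other. This difference uses control LSD, and without control LSD replicates 1 and 2 it was called in 6 nuclear members with a median of 0.10. Leaving out single libraries gave counts between 5, for instance without grn LSD replicate 3, and 23, without control LSD replicate 4.

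Single nuclear subunits are given under the authors' scaling. With CPM of all reads or quantile normalization the log2 fold change on LSD turned positive in ATPsynbeta, blw, Cyt-c-p, ND-75, ND-49, ND-MLRQ and ND-B16.6 under at least 1 of these. ATPsynbeta (FBgn0010217, 4:1031484-1034917, plus strand), the most abundant nuclear member, had 4617, 4398, 4651 and 4571 normalized CPM in libraries labelled grn RNAi on HSD, against 4505, 4446, 4787 and 4485 in control libraries on HSD. On LSD it had 4122, 4141, 4322 and 4199.6 in libraries labelled grn RNAi, against 4958, 4945, 4724 and 4571 in control libraries. The libraries labelled grn RNAi lay below all control libraries on LSD (log2 fold change -0.19, SE 0.04, adjusted p = 0.00053) and among them on HSD (log2 fold change 0.00, SE 0.04, adjusted p = 0.98). blw, the alpha subunit of ATP synthase (FBgn0011211, 2R:22799099-22802180, plus strand), had 2576, 2534, 2549.8 and 2597 in libraries labelled grn RNAi on HSD, against 2622, 2602, 2528 and 2454 in control libraries on HSD. The LSD values were 2567, 2439, 2524 and 2433 in libraries labelled grn RNAi and 2958, 2842, 2799 and 2864 in control libraries. Here every control LSD library lay above all other libraries: blw fell on LSD in the libraries labelled grn RNAi (log2 fold change -0.20, SE 0.03, adjusted p = 0.00011) and on HSD in control libraries (log2 fold change -0.17, SE 0.03, adjusted p = 0.00081). ATPsynC fell by 0.24 on LSD in libraries labelled grn RNAi and by 0.19 on HSD in control libraries on the log2 scale (limma adjusted p = 0.00021 and 0.0017). In all 3 genes the mean was highest in control LSD and lowest in libraries labelled grn RNAi on LSD.

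ATPsynG, the g subunit of the membrane part (FBgn0010612, 2L:10975522-10976399, minus strand), differed from the other ATP synthase genes. It had 286, 281, 299 and 293 normalized CPM in libraries labelled grn RNAi on HSD, against 334, 338, 355 and 331 in control libraries on HSD. Those on LSD were 306, 274, 291 and 273 in libraries labelled grn RNAi, against 439, 401, 347 and 364 in control libraries. It was lower without overlap on each diet (log2 fold change -0.23, SE 0.06, adjusted p = 0.0097 on HSD and log2 fold change -0.43, SE 0.06, adjusted p = 4.7e-05 on LSD) and was the only one of the 13 genes of complex V called on HSD. ND-MLRQ, an accessory subunit named for NADH dehydrogenase (FBgn0052230, 3L:23339326-23345936, plus strand), had 356, 365, 360.5 and 351 in libraries labelled grn RNAi on HSD, against 380.0, 409, 426 and 389.7 in control libraries on HSD. On LSD it had 340.4, 344, 328 and 331 in libraries labelled grn RNAi, against 453, 427, 381 and 368 in control libraries. It was likewise lower on each diet without overlap (log2 fold change -0.16, SE 0.06, adjusted p = 0.035 on HSD and log2 fold change -0.27, SE 0.06, adjusted p = 0.0011 on LSD), although with quantile normalization its log2 fold changes were 0.09 on HSD and 0.01 on LSD.

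ND-75, a core subunit of complex I that carries iron-sulfur clusters (FBgn0017566, X:8248651-8251687, minus strand), had 459, 472, 461 and 459 normalized CPM in libraries labelled grn RNAi on HSD, against 492, 457, 462 and 461 in control libraries on HSD. The LSD values were 433, 399, 438 and 423 in libraries labelled grn RNAi and 508, 505, 496 and 488 in control libraries. It was lower on LSD (log2 fold change -0.24, SE 0.03, adjusted p = 5.8e-05) and, in libraries labelled grn RNAi, higher on HSD than on LSD (log2 fold change 0.13, SE 0.03, adjusted p = 0.0086). ND-39, an accessory subunit (FBgn0037001, 3L:20492082-20497084, plus strand), had 309.7, 306, 307 and 311 in libraries labelled grn RNAi on HSD, against 321, 322, 322 and 313 in control libraries on HSD. Those on LSD were 296, 267, 283 and 281 in libraries labelled grn RNAi, against 382, 359, 329 and 339 in control libraries. ND-39 had the lowest adjusted p of the nuclear members on LSD (log2 fold change -0.32, SE 0.04, adjusted p = 3e-05), and the difference between the diets was also called (log2 fold change 0.27, SE 0.06, adjusted p = 0.021). ND-B17, another accessory subunit (FBgn0001989, 2L:15749319-15751078, minus strand), had 100.2, 103, 103 and 101 in libraries labelled grn RNAi on HSD, against 102, 95.7, 98.1 and 94.1 in control libraries on HSD. On LSD it had 103, 87.0, 101 and 105 in libraries labelled grn RNAi, against 136, 127, 108 and 116 in control libraries. Its difference between the diets was the largest of the named members that passed (log2 fold change 0.36, SE 0.10, adjusted p = 0.044). ND-49, a core subunit, and the accessory subunits ND-ASHI and ND-B16.6 fell on LSD in libraries labelled grn RNAi by 0.21, 0.28 and 0.18 on the log2 scale and on HSD in control libraries by 0.13, 0.28 and 0.25, all called. ND-AGGG passed in neither genotype comparison (log2 fold change 0.21, SE 0.12, adjusted p = 0.17 on HSD and log2 fold change 0.24, SE 0.12, adjusted p = 0.097 on LSD).

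UQCR-C1, a core protein of complex III (FBgn0038271, 3R:14890231-14892387, plus strand), had 881, 873, 891 and 896 normalized CPM in libraries labelled grn RNAi on HSD, against 899, 852, 891 and 844 in control libraries on HSD. On LSD the values were 866, 791, 857 and 841 in libraries labelled grn RNAi and 1052, 1011, 937 and 959 in control libraries. It fell on LSD in libraries labelled grn RNAi (log2 fold change -0.24, SE 0.04, adjusted p = 0.00025) and did not pass on HSD (log2 fold change 0.02, SE 0.04, adjusted p = 0.69). Cyt-c-p, which carries electrons from complex III to complex IV (2L:16719932-16722644, plus strand), had 930.2, 946, 956 and 984 in libraries labelled grn RNAi on HSD, against 814, 849, 928 and 872 in control libraries on HSD. Those on LSD were 906, 869, 875 and 829.5 in libraries labelled grn RNAi, against 1101, 982, 954 and 883 in control libraries. On LSD the groups overlapped and the call was made at an adjusted p of 0.025, while on HSD all libraries labelled grn RNAi lay above the control libraries without passing (log2 fold change 0.14, SE 0.06, adjusted p = 0.066). With CPM of all reads its log2 fold change on LSD was 0.04. cype, a small subunit of complex IV (FBgn0015031, 2L:5327227-5327969, plus strand), had 158, 155, 162 and 166 in libraries labelled grn RNAi on HSD, against 164, 161, 167 and 148 in control libraries on HSD. On LSD cype had 172, 162, 164 and 153 in libraries labelled grn RNAi, against 227, 206, 182 and 188 in control libraries. It was lower in libraries labelled grn RNAi on LSD (log2 fold change -0.30, SE 0.06, adjusted p = 0.0012) and on HSD in control libraries (log2 fold change -0.32, SE 0.06, adjusted p = 0.0011).

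The balance of the nuclear complexes was steadier than their level. The summed genes of complex I stood to those of complex V as 0.364 ± 0.0044 in libraries labelled grn RNAi on HSD and 0.366 ± 0.0027 in control libraries on HSD, and as 0.366 ± 0.0036 in libraries labelled grn RNAi on LSD against 0.370 ± 0.011 in control libraries on LSD (SD, n = 4). For complex III to complex V the group means lay between 0.216 and 0.223, and for complex IV to complex V between 0.213 and 0.219. These ratios, chosen after the values were seen, carry no test.

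The paralogs ending in L were near the limit of detection. ATPsynbetaL, a paralog of the beta subunit, had 0.202, 0.701, 0.117 and 0.263 normalized CPM in libraries labelled grn RNAi on HSD, against 1.24, 0.660, 1.55 and 1.19 in control libraries on HSD. The LSD values were 0.636, 0.513, 0.0997 and 0.356 in libraries labelled grn RNAi and 1.56, 0.309, 0.752 and 0.616 in control libraries, all from 3 to 37 reads a library. It was called lower on HSD with overlapping groups (log2 fold change -1.03, SE 0.29, adjusted p = 0.011). However, ATPsynbetaL passed the filter on low values only through control HSD, the group it was called lower against. The filter thus favoured a lower call, and the call gives no support for a difference. UQCR-11L, a paralog of a small subunit of complex III with 13 to 63 reads a library, had 0.944, 0.779, 0.899 and 0.963 in libraries labelled grn RNAi on HSD, against 2.44, 2.13, 1.26 and 1.23 in control libraries on HSD, and was called lower on each diet (log2 fold change -0.66, SE 0.19, adjusted p = 0.012 on HSD and log2 fold change -0.49, SE 0.19, adjusted p = 0.04 on LSD). UQCR-11L passed the filter only through the control groups, so its calls carry the same limit. Reads that also match the parent gene make these levels uncertain. Of 12 testis markers only topi was measured, with a level of 0.309 to 1.51 normalized CPM over the 16 libraries. ATPsynepsilonL was called in neither genotype comparison (adjusted p = 0.47 on HSD and 0.14 on LSD).

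Genes that work beside the chain were compared as lists, here and below under the authors' scaling alone. With CPM of all reads the median of all genes on LSD was 0.22 in place of 0.03, and how the lists change with it was not tested. Counts of called genes in these lists stand beside shares of all genes of 27.1% lower and 27.1% higher under the grn RNAi label on LSD, 21.2% lower and 17.9% higher under it on HSD, and, on HSD against LSD, 22.3% lower and 19.3% higher in control libraries and 23.3% lower and 18.3% higher in libraries labelled grn RNAi. Complex II, which feeds electrons from succinate and lay outside the rule, had 4 of 6 listed genes measured. Under the authors' scaling all 4 were lower in libraries labelled grn RNAi on LSD, with SdhA, the flavoprotein, at -0.24 on the log2 scale (SE 0.02, adjusted p = 2.2e-06), and 1 was lower on HSD, SdhC at -0.18 on the log2 scale (SE 0.05, adjusted p = 0.0094). All 4 were also lower on HSD in control libraries. The TCA cycle had 14 measured genes, of which in libraries labelled grn RNAi 11 fell and 1 rose on LSD (median -0.29), while 2 fell and 2 rose on HSD (21.2% of all genes lower and 17.9% higher). Idh, an isocitrate dehydrogenase, was lower on each diet, at -0.52 on the log2 scale (SE 0.06, adjusted p = 2.8e-06) on LSD and -0.18 on the log2 scale (SE 0.06, adjusted p = 0.022) on HSD. The median of the nuclear chain members on LSD was -0.21.

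Mitochondrial ribosomal proteins, which translate the mitochondrial mRNAs and are nuclear encoded, showed another distribution. Of 72 genes, 8 were lower and 1 higher in libraries labelled grn RNAi on LSD (median -0.04; 27.1% of all genes each way), and 19 were higher and 0 lower on HSD (median 0.12; 17.9% of all genes higher and 21.2% lower). On HSD against LSD, 70 of the 72 were lower in control libraries (median -0.33) and 37 in libraries labelled grn RNAi (median -0.17), beside 37 and 0 of the 66 nuclear chain members. The 88 cytosolic ribosomal proteins gave 2 higher and 0 lower on LSD in libraries labelled grn RNAi, and 62 lower and 0 higher on HSD in control libraries. The differences between lists were not tested.

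Assembly factors, which build the complexes, included 6 of 11 measured that were lower in libraries labelled grn RNAi on LSD (27.1% of all genes) and 9 of 11 that were lower on HSD in control libraries (22.3% of all genes). ECSIT and CIA30, which assemble complex I, were at -0.43 on the log2 scale (SE 0.06, adjusted p = 2e-05) and -0.36 on the log2 scale (SE 0.06, adjusted p = 0.0002) on LSD. Among 14 genes for maintenance and expression of mitochondrial DNA, in libraries labelled grn RNAi 1 fell on LSD (27.1% of all genes), while on HSD 1 fell and 1 rose (21.2% and 17.9% of all genes). TFAM, which packages the mitochondrial DNA, did not pass on either diet (0.09 on the log2 scale (SE 0.05, adjusted p = 0.13) on HSD and 0.08 on the log2 scale (SE 0.05, adjusted p = 0.18) on LSD). Among 4 regulators of mitochondrial biogenesis, srl, the fly PGC-1 homolog, was higher in libraries labelled grn RNAi on each diet, and ERR was lower (-0.22 on the log2 scale (SE 0.07, adjusted p = 0.019) on HSD and -0.32 on the log2 scale (SE 0.07, adjusted p = 0.0015) on LSD). For srl the values were 0.26 on the log2 scale (SE 0.08, adjusted p = 0.014) on HSD and 0.32 on the log2 scale (SE 0.08, adjusted p = 0.0025) on LSD.

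Of 6 genes for other routes of electron entry, 1 was higher and 3 lower in libraries labelled grn RNAi on LSD (27.1% of all genes each way). The one higher was Gpo-1, the glycerol-3-phosphate oxidase of mitochondria, which also rose on HSD in control libraries (1.54 on the log2 scale (SE 0.05, adjusted p = 6e-11)) and in libraries labelled grn RNAi (1.56 on the log2 scale (SE 0.05, adjusted p = 1.7e-11)). Among 7 measured carriers and uncoupling proteins, 2 were lower in libraries labelled grn RNAi on LSD, and on HSD 2 were higher and 1 lower (on LSD 27.1% of all genes were lower, on HSD 17.9% were higher and 21.2% lower). sesB, the ATP/ADP carrier, was at 0.12 on the log2 scale (SE 0.03, adjusted p = 0.0069) on HSD and at -0.05 on the log2 scale (SE 0.03, adjusted p = 0.17) on LSD. Of 6 chaperones and proteases of mitochondria, 3 were lower on LSD and 0 on HSD in libraries labelled grn RNAi (27.1% and 21.2% of all genes).

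**Figure D5:**
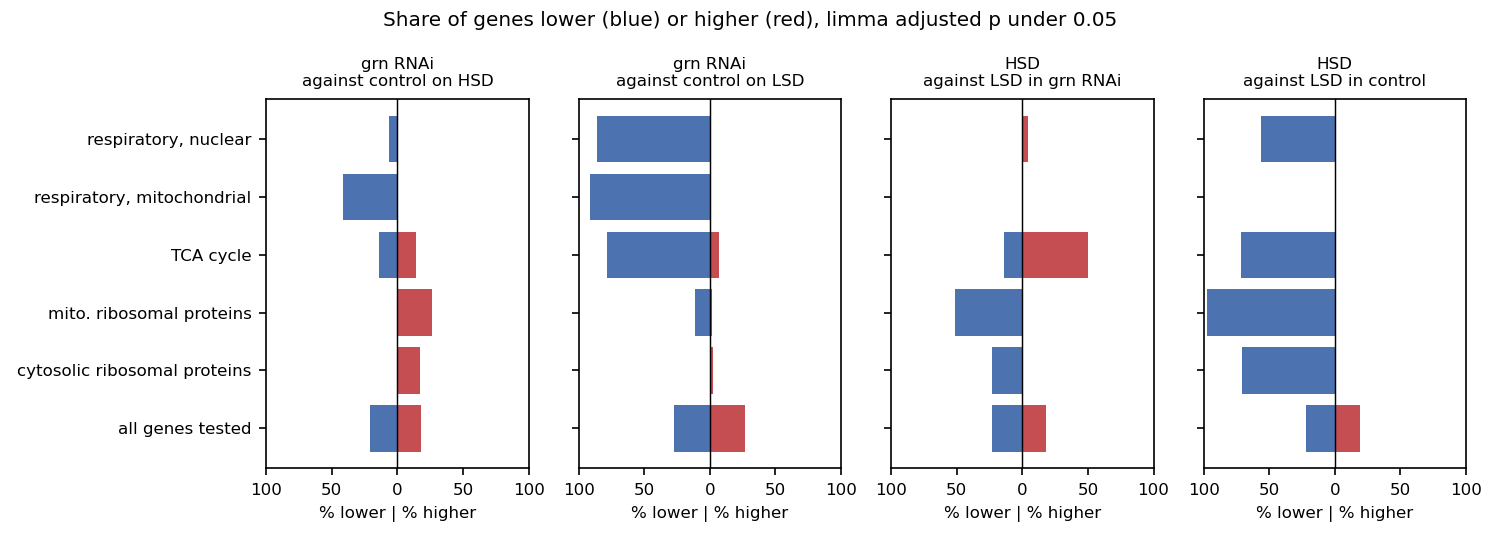
Share of each gene list called lower (blue, left of zero) or higher (red, right of zero) by limma in 4 comparisons. On LSD under the authors' scaling, 57 of 66 nuclear chain members and 11 of 12 mitochondrial genes are lower in libraries labelled grn RNAi. So are 11 of 14 TCA cycle genes. In control libraries on HSD, 70 of 72 mitochondrial ribosomal proteins are lower. With CPM of all reads the nuclear share called lower on LSD is 5 of 66.

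Markers of tissues moved in the same comparisons, given under the authors' scaling alone. In these bulk samples of whole larvae, fewer cells of a type and less RNA per cell cannot be told apart. Of 14 muscle markers, 2 were lower in libraries labelled grn RNAi on HSD (21.2% of all genes), and 12 were lower on LSD (median -0.23; 27.1% of all genes). The summed muscle markers ran from 55592 to 59814 normalized CPM in libraries labelled grn RNAi on HSD, against 55979 to 61346 in control libraries on HSD, and from 49843 to 54809 in libraries labelled grn RNAi on LSD, against 57669 to 62472 in control libraries on LSD. Of 11 measured midgut markers, 8 were lower on HSD and 10 on LSD (median -0.70; 21.2% and 27.1% of all genes), with sums of 2425 to 2673 in libraries labelled grn RNAi against 3569 to 4160 in control libraries on HSD, and 1524 to 1598 in libraries labelled grn RNAi against 3128 to 3377 in control libraries on LSD. Markers of neurons, 6 of 7, and of dividing cells, 4 of 6, were higher in libraries labelled grn RNAi on LSD, and of 4 measured fat body markers 2 were lower (27.1% of all genes each way). The part of tissue composition in the levels of the chain was not tested.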

How the data were processed

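Poly(A) RNA of whole larvae was sequenced in 16 libraries, 4 for each of 4 groups, which were taken from the sample titles. Trimming by the authors used Trimmomatic, alignment TopHat2 2.1.0, and counting by strand HTSeq (2.7.6 in their processing notes). The deposited signal per gene and library is normalized CPM. Division by the smallest value of a library gave back the reads, whole within 0.01 read for 100% of the values. The deposited fold changes, t statistics and p-values of the authors' own comparisons were not used.

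A gene was kept if its normalized CPM exceeded 1 in 3 or more libraries of any group (9950 of 9982 genes). log2(normalized CPM + 0.5) was fitted with limma 3.58.1 (R 4.3.3; 4 group means, trend, two-sided), with Benjamini-Hochberg adjustment across those 9950 genes and a threshold of 0.05. The fold changes are on this scale and understate changes of low genes. Adjusted p-values are from limma unless another tool is named. The study calls its replicates biological, without saying how they were raised apart, and p-values measure the spread between these libraries. The exact permutation test was two-sided. The ratio of mitochondrial to nuclear sums carries no test. Lengths are those of merged exons in Ensembl BDGP6, which matched all members by FlyBase identifier except Cyt-c-p, matched by symbol.

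The alternatives were other pseudocounts, filters, scalings of the recovered reads, edgeR 4.0.16, DESeq2 1.42.0, a replicate block, a minimum fold change and each library left out. The fits were tested on simulated data. The members and lists were chosen with earlier results of these data known. Members were named by rule: all 12 mitochondrial genes, the 5 most abundant nuclear genes, the L paralogs, the 4 with the lowest adjusted p each way and those at the extremes in each comparison. From the other lists up to 3 genes called most often could be named. The ratios between complexes were chosen after the values were seen.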

Additional observations from a re-analysis of the deposited data

Results flagged for a closer look

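The effect of the grn RNAi label differed between the diets in 15 of the 66 nuclear members by the test of the difference itself in limma (adjusted p under 0.05; 3.72% of all genes), and in 6 without control LSD replicates 1 and 2 (median 0.10). Of these 15, 10 are named, and members were named partly for low p-values and extreme values. The difference, log2 fold change on HSD minus that on LSD, was 0.19 for ATPsynbeta, 0.23 for ATPsynC, 0.21 for blw, 0.31 for Cyt-c-p, 0.26 for UQCR-C1, 0.27 for ND-39, 0.22 for ND-75, 0.30 for ND-ASHI, 0.21 for ND-49 and 0.36 for ND-B17. For ATPsynbeta it was -0.08 with quantile normalization.

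In ND-39, control HSD replicate 4 lay apart from the other control libraries on HSD, with a gap of 0.878 of the group's range, and in ND-75 control HSD replicate 1 did so with 0.866. These are 2 of 132 groups of 4 libraries examined, and chance sets apart about 1 in 20.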

How the results depend on the processing

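Other pseudocounts and no filter moved no count of called members by over 1.5 times. For the mitochondrial genes, a log2 fold change of at least 0.5 left 5 called on LSD and 2 on HSD, and CPM of all reads or of nuclear reads gave 3 on HSD. For HSD against LSD in control libraries 0 passed, and a filter at 5 gave 2, quantile normalization 1 and DESeq2 2. In libraries labelled grn RNAi the diet gave 0, and quantile normalization 2, CPM of all reads 1, median of ratios 1 and DESeq2 1. For the nuclear members the 57 called on LSD became 18 with quantile normalization, 7 with CPM of all reads, 7 with CPM of nuclear reads, 0 with a log2 fold change of at least 0.5 and 28 without the 2 control LSD libraries of highest column sum (chosen after seeing the data). The 4 on HSD became 54, 49 and 44 with quantile normalization, CPM of all reads and CPM of nuclear reads, 7 with the 8 libraries alone, 2 with a filter at 5 and 2 with the minimum fold. The 57 and the 4 were all called lower, but the counts that replace them pool both directions. With quantile normalization most of these calls were higher on each diet. With CPM of all reads most were higher on HSD and lower on LSD. The 37 of the diet in control libraries became 16 with the 8 libraries alone, 15 without the pair of control LSD libraries and 0 with the minimum fold. The 3 of the diet in libraries labelled grn RNAi became 6 with CPM of all reads, 6 with CPM of nuclear reads, 7 with median of ratios, 8 with the 8 libraries alone, 10 with DESeq2 and 0 with the minimum fold. The 15 of the difference between diets became 9 with quantile normalization, 37 with DESeq2, 6 without the pair of control LSD libraries and 0 with the minimum fold. Apart from the minimum fold and the omitted libraries, the cause was not tested.

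Leaving out 1 library at a time gave 10 to 11 mitochondrial calls on LSD, 3 to 8 on HSD, 0 to 3 for the diet in control libraries and 0 to 1 in libraries labelled grn RNAi. The 3 calls arose without control HSD replicate 3. Nuclear calls were 45 to 61 on LSD, 3 to 4 on HSD, 24 to 50 for the diet in control libraries, 2 to 3 in libraries labelled grn RNAi and 5 to 23 for the difference between diets. In each alternative run, the difference in the log2 ratio of mitochondrial to nuclear sums moved by less than the pooled SD of 0.129.

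Signs of named genes turned with the scaling. On LSD, quantile normalization gave log2 fold changes of 0.09 for ATPsynbeta, 0.022 for Cyt-c-p, 0.08 for ND-75, 0.008 for ND-MLRQ, 0.033 for ND-B16.6, 0.075 for ND-49 and 0 for mt:lrRNA, which was the most abundant gene in all 16 libraries and so has the same quantile in each. CPM of all reads gave 0.011 for ATPsynbeta, 0.002 for blw, 0.036 for Cyt-c-p and 0.028 for ND-B16.6, and CPM of nuclear reads 0.012 for Cyt-c-p and 0.004 for ND-B16.6. On HSD, quantile normalization gave 0.094 for ND-MLRQ. For ATPsynbeta it gave -0.034 for the diet in libraries labelled grn RNAi and -0.08 for the difference between diets.

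Libraries with the same replicate number did not deviate together in every pair (correlations from -0.51 to 0.80), so they were not taken as paired. Between diets, numbers 2 and 3 correlated best with their own number, at 0.62 and 0.80 in libraries labelled grn RNAi and 0.46 and 0.55 in control libraries, while number 1 was at -0.44 in each. With a replicate block the nuclear calls for the difference between diets were 9 and the mitochondrial calls for the diet in control libraries 1.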
